A study of Mus musculus with 6 samples.

Results

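The genes described here are 10 mouse genes known for their burst of transcription at the 2-cell stage: Zscan4c, Zscan4d, Zscan4f, Zfp352, Tcstv1, Tcstv3, Tdpoz1, Tdpoz3, Tdpoz4 and Tmem92. They were chosen by name, and every probe whose platform symbol, old or current, was one of the 10 was kept. This gave 13 of the 45281 probes, for 8 of the 10 genes. Zscan4d and Zscan4f had no probe under their own name.

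Transcripts of mouse embryonic stem cells were measured on Illumina bead arrays, 1 array per sample. Both groups grew in fetal bovine serum with leukemia inhibitory factor, on embryonic fibroblast feeders that mitomycin C had stopped from dividing. Both were electroporated with a pHYPER vector and selected with puromycin from 24 h after transfection for 48 h. The 3 shChd8 arrays carry RNA of cells given a hairpin against Chd8, an ATP-dependent chromatin remodeller. The other 3 arrays are controls, and the labels do not describe the content of their vector. The labels name 1 hairpin and no rescue, so the loss of Chd8 and other actions of the hairpin cannot be told apart. Separate cultures are not stated for the replicates, so the p-values cover only how far these samples differed, and that may be technical spread. All 6 arrays lay on 1 slide with the groups at separate ends, and position cannot be told apart from group. Replicates are numbered in accession order and pair nothing.

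The 2-cell stage is when the mouse embryo first transcribes its own genome on a large scale. Embryonic stem cell cultures hold a small and changing minority of cells that switch the same genes on for a time, known as 2-cell-like cells, while most cells keep them silent. A bulk measurement sums both kinds, so a change in the number of such cells and a change in RNA per cell cannot be told apart here. Zscan4 proteins, with a SCAN domain and zinc fingers, are known for telomere lengthening in mouse embryonic stem cells, and Tcstv1 and Tcstv3 have been linked to the same process. Zfp352 encodes a zinc-finger protein, the Tdpoz genes encode relatives of the ubiquitin ligase adaptor Speckle-type POZ protein, and Tmem92 encodes a membrane protein.

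The promoters are shown because some members, such as the Zscan4 genes, belong to families of close copies. A further reason is that members of separate families varied together, to unequal degrees, across the arrays. RefSeq windows (GRCm38.p6) of 300 bases, from 250 before the annotated start to 50 from it, were at hand for 6 members: Zscan4c, Zscan4d, Zscan4f, Zfp352, Tdpoz1 and Tdpoz4. Zscan4c lies on the plus strand with its window at chr7:11005495-11005794, Zscan4f on the plus strand at chr7:11397665-11397964, and Zscan4d on the minus strand at chr7:11166099-11166398. The window of Zfp352 is chr4:90218570-90218869 on the plus strand, and that of Tdpoz1 is chr3:93676234-93676533 on the minus strand. Capitals mark TATAA and a 17-base run that Zfp352 and Tdpoz1 share, and all sequences read 5′ to 3′ along the gene's strand.
Zscan4c: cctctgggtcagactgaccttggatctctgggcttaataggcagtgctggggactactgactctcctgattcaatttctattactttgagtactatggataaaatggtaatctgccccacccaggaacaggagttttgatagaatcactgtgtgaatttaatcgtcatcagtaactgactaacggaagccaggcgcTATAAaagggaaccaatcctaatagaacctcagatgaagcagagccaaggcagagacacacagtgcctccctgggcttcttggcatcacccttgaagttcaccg
Zscan4f: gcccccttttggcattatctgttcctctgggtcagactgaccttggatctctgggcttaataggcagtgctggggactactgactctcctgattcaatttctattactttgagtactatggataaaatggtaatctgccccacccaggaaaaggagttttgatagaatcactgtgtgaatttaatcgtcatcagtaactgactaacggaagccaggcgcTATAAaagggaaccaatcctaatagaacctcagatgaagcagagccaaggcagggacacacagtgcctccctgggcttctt
Zscan4d: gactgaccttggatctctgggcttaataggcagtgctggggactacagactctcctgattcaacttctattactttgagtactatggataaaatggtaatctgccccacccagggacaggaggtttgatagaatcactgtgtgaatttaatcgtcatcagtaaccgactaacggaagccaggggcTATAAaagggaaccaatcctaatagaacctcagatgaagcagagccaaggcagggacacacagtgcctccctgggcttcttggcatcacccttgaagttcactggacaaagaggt
Zfp352: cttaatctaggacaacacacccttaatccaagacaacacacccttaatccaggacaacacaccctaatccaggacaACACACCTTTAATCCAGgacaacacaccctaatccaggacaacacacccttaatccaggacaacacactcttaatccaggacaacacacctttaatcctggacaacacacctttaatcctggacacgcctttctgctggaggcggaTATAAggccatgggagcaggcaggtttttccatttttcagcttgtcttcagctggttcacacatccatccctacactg
Tdpoz1: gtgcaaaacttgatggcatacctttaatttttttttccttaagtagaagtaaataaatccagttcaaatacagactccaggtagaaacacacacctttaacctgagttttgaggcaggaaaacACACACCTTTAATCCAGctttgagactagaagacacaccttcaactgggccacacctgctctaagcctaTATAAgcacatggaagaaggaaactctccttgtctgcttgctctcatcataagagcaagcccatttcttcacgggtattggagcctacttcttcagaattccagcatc

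The Zscan4c and Zscan4f windows matched at 275 of 277 aligned bases (99.28%), and those of Zscan4c and Zscan4d at 280 of 287 (97.56%). TATAA, searched on both strands, was present once, on the gene's strand, in 5 of the 6 windows. It lay 54 bases before the annotated start in Zscan4c, 65 in Zscan4d, 31 in Zscan4f, 28 in Zfp352 and 58 in Tdpoz1. The window of Tdpoz4 did not hold these letters. Of all 32851 RefSeq promoter windows of this length, 24.9% held TATAA on either strand. The best local alignment of the Zfp352 and Tdpoz1 windows was the run ACACACCTTTAATCCAG, which was picked for being shared. It stood in 5 of the 32851 windows (0.0152%, both strands searched), those of Zfp352, Tdpoz1, Tdpoz8, Tdpoz9 and Spopfm2. It does not overlap TATAA in these windows, and the match is a description of sequence only.

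The cell label was checked against markers. All 15 embryonic stem cell markers with a probe, among them Pou5f1, Nanog and Sox2, were detected and tested, and none was called. Per array, 16482 to 17440 probes were detected, and mean intensity before normalization ran from 389.9 on control 2 to 497.5 on shChd8 3. Chd8 was lower on every shChd8 array than on every control array, and 38.1% of its control level remained (log2 difference -1.39, SE 0.15, limma adjusted p = 0.00907). The shChd8 samples read higher for feeder fibroblast markers in 29 of 30 tested genes, with a median log2 difference of 0.93, and 2 were called. Across all genes, 502 of 9711 were called (5.17%), 206 higher and 296 lower, where a call is a limma adjusted p under 0.05 over all tested probes. At probe level 615 of 16732 were called (3.68%).

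None of the 2-cell-stage genes passed the test in either direction. Testing required a detection p below 0.01 on 3 or more arrays, which held for 9 of the 13 member probes, covering 7 genes, and each of the 9 was detected on all 6 arrays. Of these 9 probes, 0 were called by limma, against 3.68% of all tested probes, and 0 had an unadjusted p under 0.05. The control and shChd8 arrays overlapped for all 9, whereas 30.2% of all tested probes had groups that did not overlap. The log2 difference, shChd8 minus control, was above 0 for 6 probes and below 0 for 3, with a median of 0.18 beside -0.01 over all tested probes. Values below are log2 intensities after background correction and quantile normalization, in the order of replicates 1, 2 and 3. With 3 arrays against 3, an exact two-sided permutation test of a single probe cannot give a p below 0.1.

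**Figure D1:**
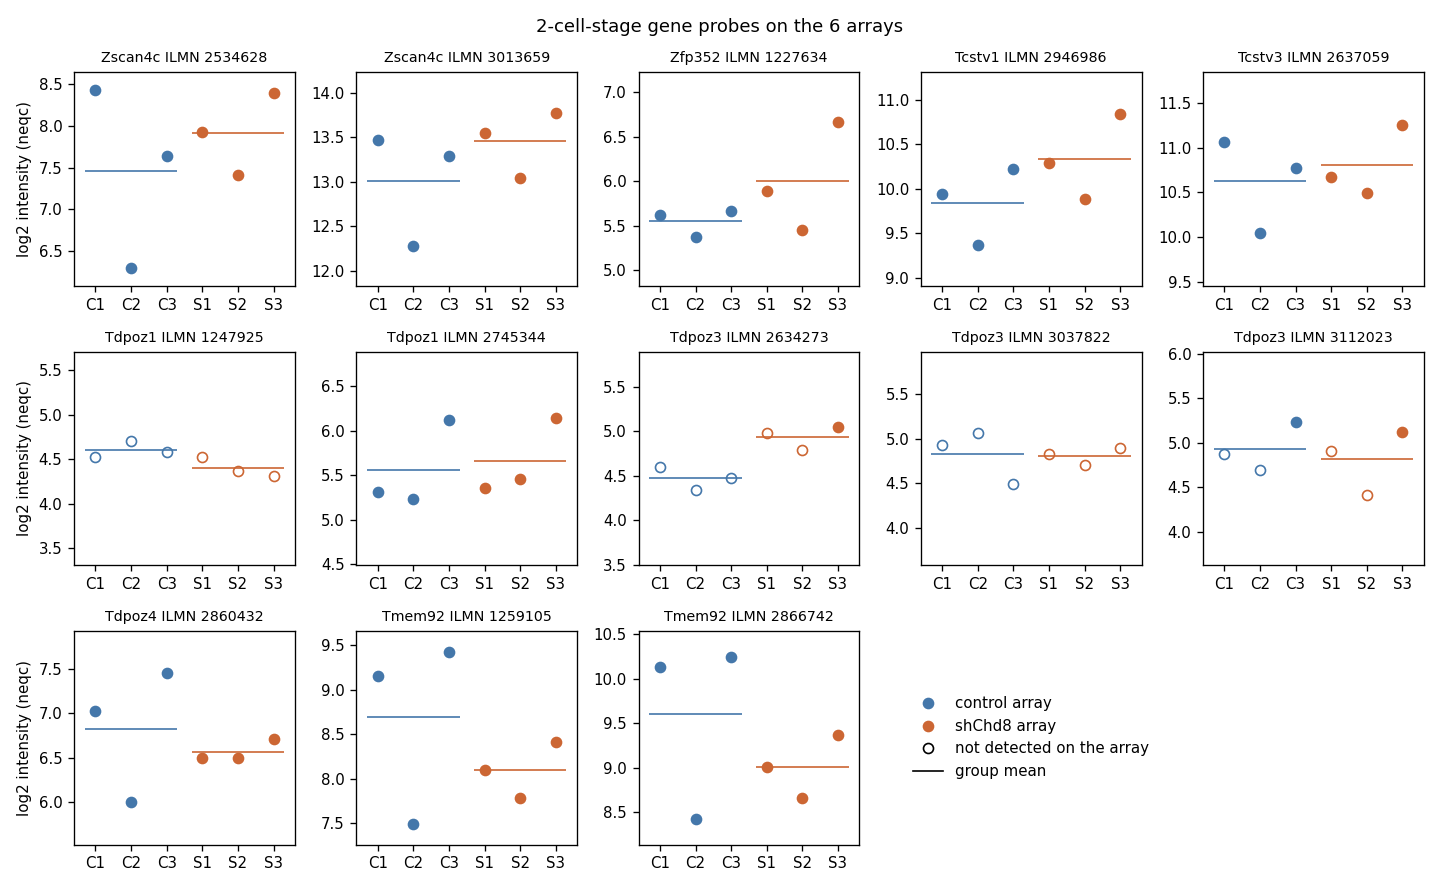
Log2 intensity of the 13 member probes on the control arrays (C1 to C3, blue) and the shChd8 arrays (S1 to S3, orange), with group means as lines and open circles where the probe was not detected. Each panel has its own axis. Control 2 is the lowest of the 6 arrays in all 9 tested probes, and the groups overlap in each of them.

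Zscan4, the SCAN and zinc-finger family, was read by 2 probes under the symbol Zscan4c. RefSeq lists the name Zscan4d as a synonym of Zscan4c, although Zscan4d is also a separate gene with its own window above. A probe of such a family can bind RNA of several copies, so both probes are taken as readings of Zscan4 RNA of no settled copy. Probe ILMN_3013659 read 13.47, 12.28 and 13.28 in the controls and 13.55, 13.04 and 13.77 in shChd8 samples. The lowest value was that of control 2 and the highest that of shChd8 3, and the remaining 4 arrays mixed. Before normalization the intensity of this probe was 4508 on control 2, against 11146 and 10178 on the other control arrays, and it ran from 8963 to 16146 on the shChd8 arrays. The means were 13.01 ± 0.64 (SD, n = 3) and 13.45 ± 0.38 (SD, n = 3), a log2 difference of 0.44 (SE 0.32, 95% confidence interval -0.30 to 1.18, limma adjusted p = 0.428). As a fold this is 1.36, with an interval from 0.814 to 2.26, so a modest fall lies inside it as well as a rise. Without control 2 the log2 difference was 0.07.

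The other Zscan4 probe, ILMN_2534628, read 8.43, 6.29 and 7.64 in the controls and 7.93, 7.41 and 8.39 in shChd8 samples. Its highest array was a control, replicate 1, and its lowest was control 2, so the shChd8 values fell inside the range of the controls. The controls alone differed 4.40-fold from lowest to highest. The log2 difference was 0.46 (SE 0.49, 95% confidence interval -0.66 to 1.57, limma adjusted p = 0.596). Without control 2 it was -0.12, so its sign rested on that array.

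The Tcstv genes, named as 2-cell-specific transcript variants, were read by 1 probe each. Tcstv1 (ILMN_2946986) read 9.94, 9.37 and 10.22 in the controls and 10.28, 9.88 and 10.84 in shChd8 samples. The shChd8 2 value lay below both control 1 and control 3, and shChd8 3 was the highest of all. Its log2 difference was 0.50 (SE 0.29, 95% confidence interval -0.17 to 1.16, limma adjusted p = 0.319), the lowest adjusted p among the members, and it was 0.26 without control 2 and 0.25 without shChd8 3. Tcstv3 (ILMN_2637059) read 11.07, 10.04 and 10.77 in the controls and 10.67, 10.49 and 11.26 in shChd8 samples. Control 1 exceeded 2 of the 3 shChd8 arrays, so the groups lay largely on top of each other. The log2 difference was 0.18 (SE 0.30, 95% confidence interval -0.50 to 0.85, limma adjusted p = 0.742), and it was -0.11 without control 2 and -0.05 without shChd8 3.

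Zfp352, the zinc-finger gene, was read by ILMN_1227634 at 5.62, 5.38 and 5.67 in the controls and at 5.89, 5.46 and 6.67 in shChd8 samples. The shChd8 3 array stood above the other 5, and shChd8 2 lay within the controls. The log2 difference was 0.45 (SE 0.28, 95% confidence interval -0.20 to 1.10, limma adjusted p = 0.357). Without shChd8 3 it was 0.12, so most of the difference rested on 1 array.

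Among the Tdpoz genes, whose products carry a POZ domain, Tdpoz1 and Tdpoz4 were detected and Tdpoz3 was at background. Tdpoz1 (ILMN_2745344) read 5.31, 5.23 and 6.12 in the controls and 5.36, 5.46 and 6.14 in shChd8 samples. In each group replicate 3 was the high array, and the log2 difference was 0.10 (SE 0.29, 95% confidence interval -0.56 to 0.76, limma adjusted p = 0.865). The other Tdpoz1 probe was not detected on any array. Tdpoz4 (ILMN_2860432) read 7.02, 6.00 and 7.45 in the controls and 6.50, 6.50 and 6.71 in shChd8 samples. The shChd8 arrays sat close together, inside the 2.73-fold range of the controls. The log2 difference was -0.26 (SE 0.33, 95% confidence interval -1.0 to 0.49, limma adjusted p = 0.662). None of the 3 Tdpoz3 probes could be tested, since each was detected on at most 1 array per group. The probe ILMN_2634273 was detected on shChd8 3 alone, where it read 5.05. Its shChd8 values, from 4.79, lay above the control values, up to 4.60, but the bound on the fold was under 1 and no fold is given. For the other Tdpoz3 probes, ILMN_3037822 and ILMN_3112023, the groups overlapped. The first was detected on no array and the second on control 3 and shChd8 3. The Tdpoz family also holds close copies: the Tdpoz1 promoter window matched that of Tdpoz9, not a member here, at 272 of 273 aligned bases. With the Tdpoz4 window, the best local alignment of Tdpoz1 was only 10 bases long. A window of Tdpoz8 matched that of Tdpoz1 at 229 of 267 aligned bases, and a separate Tdpoz8 window matched that of Tdpoz4 at 282 of 300. The short alignment therefore does not show that Tdpoz1 and Tdpoz4 are unrelated. Promoter windows lie mostly before the annotated start, so they do not settle which copies a probe reads.

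Tmem92, the membrane protein gene, had the largest differences in the downward direction, on 2 probes that read alike. Probe ILMN_1259105 read 9.15, 7.50 and 9.42 in the controls and 8.10, 7.78 and 8.41 in shChd8 samples. Controls 1 and 3 were above all shChd8 arrays and control 2 was below all of them. The log2 difference was -0.59 (SE 0.45, 95% confidence interval -1.63 to 0.44, limma adjusted p = 0.449). Probe ILMN_2866742 read 10.14, 8.43 and 10.25 in the controls and 9.01, 8.67 and 9.37 in shChd8 samples, the same order with a log2 difference of -0.59 (SE 0.45, limma adjusted p = 0.447). Without control 2 both probes were called lower, at -1.19 (limma adjusted p = 0.0349) and -1.17 (limma adjusted p = 0.0376). In that fit 864 of 16325 tested probes were called. Control 2 was the lowest array for both Tmem92 probes, so leaving it out raises their control mean.

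**Figure D2:**
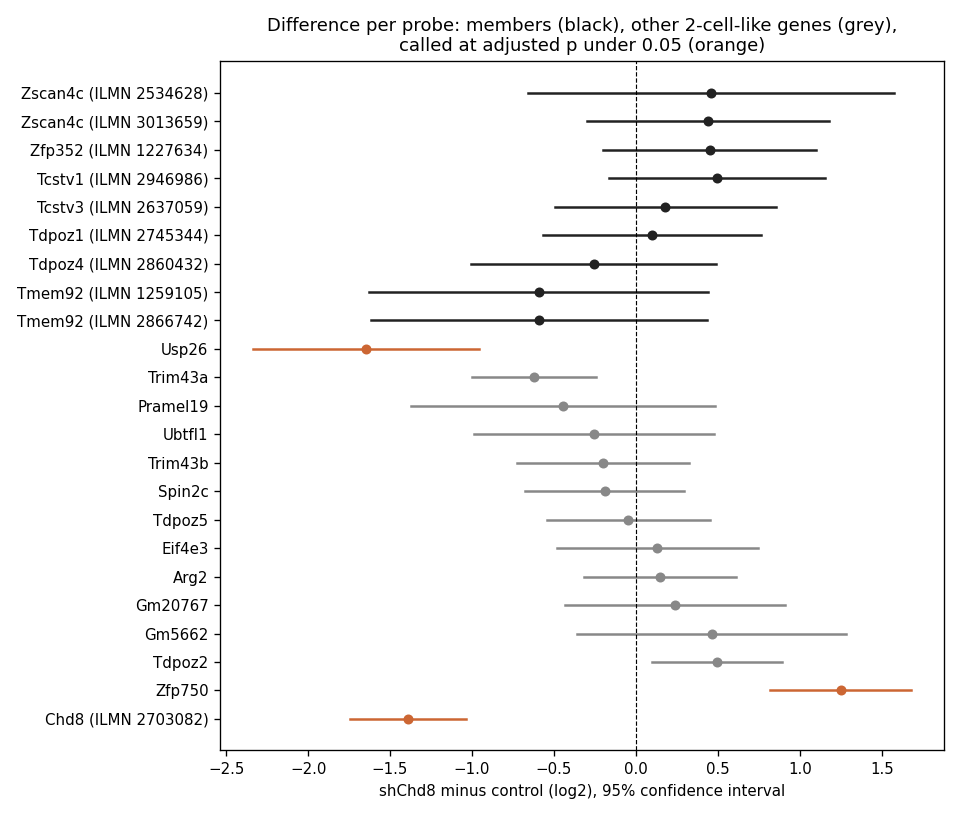
Log2 difference (shChd8 minus control) as points with 95% confidence intervals as lines, for the 9 tested member probes (black), 13 other genes of the 2-cell-like state (grey) and Chd8. Orange marks a limma adjusted p under 0.05. Every member interval crosses 0, while those of Usp26, Trim43a, Tdpoz2, Zfp750 and Chd8 do not.

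The members varied between arrays of one group more than most probes did. The residual SD within groups was 0.84 for Zscan4 probe ILMN_2534628, higher than in 99.6% of all tested probes, and 0.77 and 0.76 for the Tmem92 probes. Zscan4 probe ILMN_3013659 had a residual SD of 0.52, above 99.1% of the 211 tested probes whose mean level lay within 0.5 of its own on the log2 scale, where the median was 0.13. Over the 9 probes, the percentile among probes of like level ran from 83.3 for Zfp352 to 99.5 for ILMN_2534628.

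**Figure D3:**
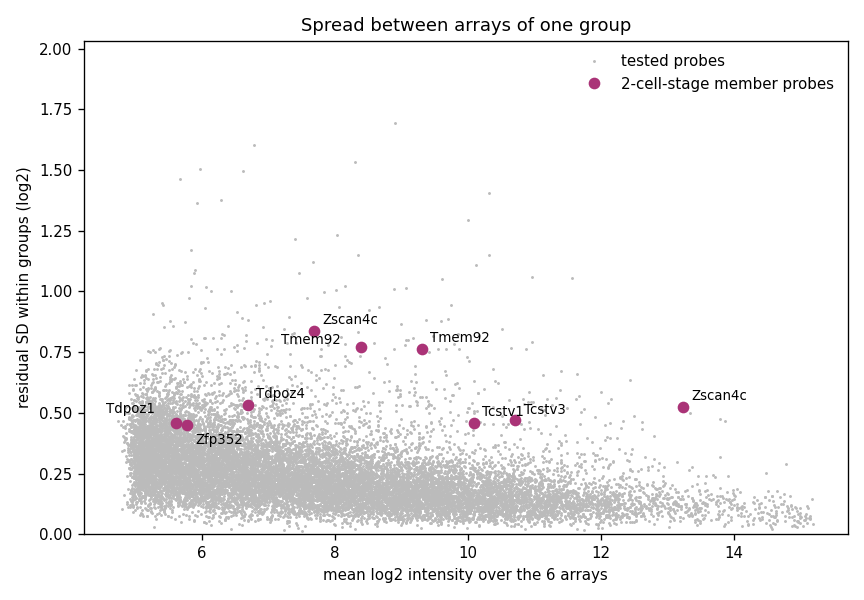
Residual SD within groups against the mean log2 intensity over the 6 arrays, for all 16732 tested probes (grey) and the 9 member probes (purple). The member probes lie in the upper part of the cloud at their level, from a residual SD of 0.45 for Zfp352 to 0.84 for Zscan4 probe ILMN_2534628.

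The spread had a shared order across the arrays. Control 2 was the lowest of the 6 arrays in 9 of 9 member probes, against 17.1% of all tested probes. Within the shChd8 group, shChd8 3 was the highest array in 9 of 9 member probes, against 39.2% of all tested probes, and it was the highest of all 6 in 5 of 9, against 15.7%. As a median over the 9 probes, the deviation from each probe's mean was 0.33, -0.72 and 0.13 in the controls and -0.05, -0.23 and 0.54 in shChd8 samples, on the log2 scale. The 9 probes are not independent, since members share families and samples. The arrays at the ends of this order were also those with the lowest and the highest mean intensity before normalization. The median deviation of the embryonic stem cell markers was 0.02 on control 2 and 0.19 on shChd8 3, and that of the feeder markers was -0.32 and -0.04. The part of total intensity in the order of the members was not tested.

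**Figure D4:**
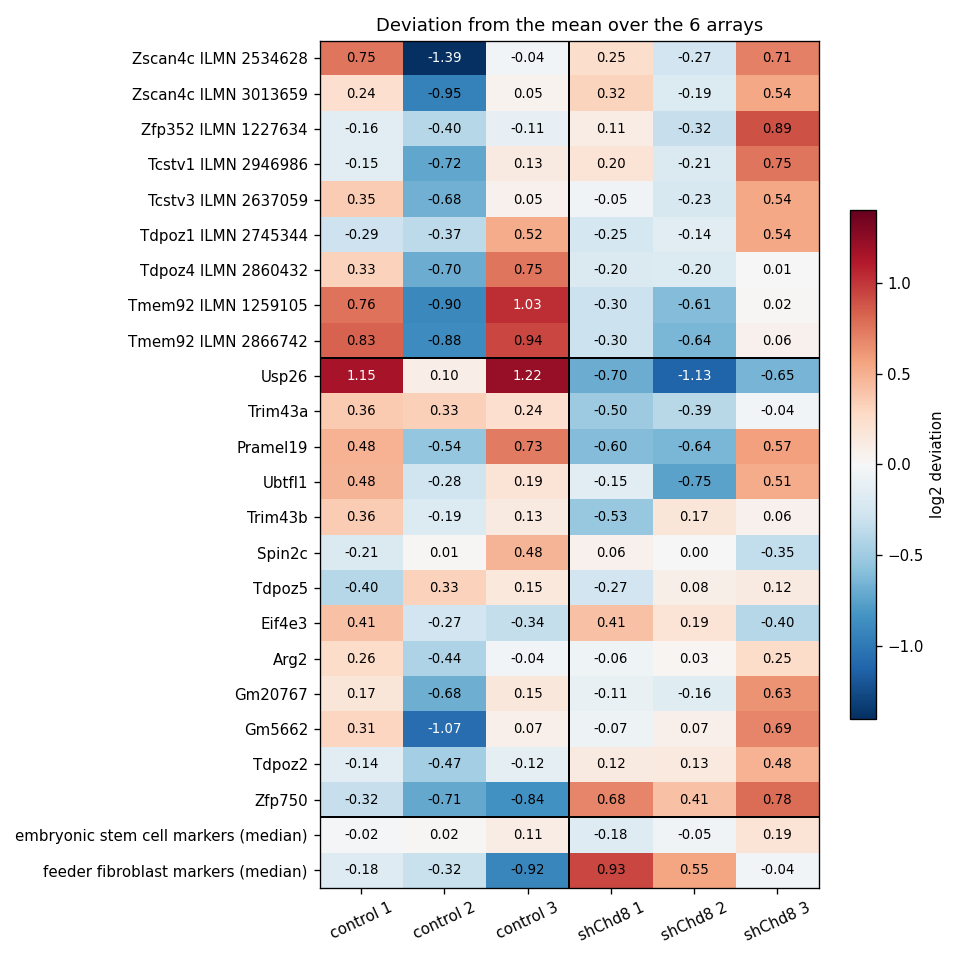
Deviation of each probe from its own mean over the 6 arrays (log2, colour and number), for the member probes (top), other genes of the 2-cell-like state (middle) and the medians of 15 embryonic stem cell and 30 feeder markers (bottom). The control 2 column is below 0 in all 9 member rows and the shChd8 3 column is above 0 in all 9.

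Members of separate families followed this order to unequal degrees. The 2 Zscan4 probes correlated at r = 0.96 over the 6 arrays, and the 2 Tmem92 probes at r = 0.997. Against the mean deviation of the Zscan4 probes, Tcstv3 had r = 0.95 (rank 36 of 9710 genes), Tcstv1 0.84 (rank 214), Zfp352 0.69, Tmem92 0.63, Tdpoz4 0.60 and Tdpoz1 0.44. With the group means removed, r was 0.94 for Tmem92 and 0.79 for Tdpoz4. Without control 2 and shChd8 3, the arrays farthest from the middle of the Zscan4 profile, r over the 4 others was 0.84 for Tcstv3, 0.55 for Zfp352, 0.48 for Tmem92, 0.19 for Tcstv1, 0.14 for Tdpoz4 and -0.43 for Tdpoz1. Those arrays were picked as the ends of the Zscan4 profile itself, so a fall in r is partly built in. With r over 4 arrays this imprecise, the values do not sort the members. Between families, r was highest for Tdpoz4 with the 2 Tmem92 probes (0.96 and 0.95) and for Tcstv3 with the 2 Zscan4 probes (0.96 and 0.92). It was lowest for Zfp352, with 0.16 against Tdpoz4 and 0.17 and 0.20 against the 2 Tmem92 probes. The 5 non-member genes most like the Zscan4 profile were Ranbp9 (r = 0.996), Fbxl14 (0.995), Morf4l1 (0.994), Tmem106b (0.987) and Aldh4a1 (0.986). Across all genes 112 (1.15%) had r over 0.9, and with 6 arrays that share slide and processing these values only describe the arrays.

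Other genes of the 2-cell-like state gave 1 call in each direction among 13 tested, where 5.17% of all genes were called. Of 55 listed, 27 had a probe and 13 were tested, with a median log2 difference of -0.05 beside -0.02 over all genes, and 8 were detected on no array. Usp26, a ubiquitin-specific protease gene, read 8.03, 6.98 and 8.10 in the controls and 6.18, 5.76 and 6.24 in shChd8 samples. All shChd8 values lay under all controls, and it fell by 1.65 on the log2 scale (SE 0.30, limma adjusted p = 0.0347). With group means removed, its r with the Zscan4 profile was 0.94, against 0.04 with them kept. Zfp750, a zinc-finger gene, read 6.04, 5.65 and 5.52 in the controls and 7.04, 6.77 and 7.14 in shChd8 samples, and rose by 1.25 (SE 0.19, limma adjusted p = 0.0219). It is best known from epidermal differentiation, and every shChd8 array was above every control. The others named had a log2 difference of -0.62 for Trim43a (SE 0.17, limma adjusted p = 0.0689, detected on 1 of 3 shChd8 arrays), 0.49 for Tdpoz2 (SE 0.17), 0.46 for Gm5662 (SE 0.36) and -0.45 for Pramel19 (SE 0.41), and none of these was called. A probe of Tdpoz8, a close relative of the Tdpoz members, differed by 0.50 (SE 0.19, limma adjusted p = 0.155). Dux, which encodes the homeodomain activator of many of these genes, had no probe among those used.

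Genes known to act on the 2-cell-like state were mostly detected. Of 11 activators, 8 were tested and 0 were called, and at an unadjusted limma p under 0.05 there was 1 gene in each direction, near the 27.4% of all genes that passed it. Dppa2 and Dppa4, the paired DNA-binding proteins that switch on Dux in mouse cells, differed by -0.30 (SE 0.24) and -0.16 (SE 0.15). Dppa3, a maternal factor that guards DNA methylation, differed by -0.57 (SE 0.18, limma adjusted p = 0.0994), and Gata2, a zinc-finger factor, by 0.73 (SE 0.26, limma adjusted p = 0.125). Nelfa, a subunit of the negative elongation factor, differed by 0.17 (SE 0.16), and the T-box gene Tbx3 by -0.18 (SE 0.21).

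Of 30 repressors, 27 were tested and Smchd1 alone was called, on 1 of its probes, where 5.17% of all genes were called. Smchd1, which silences Dux and the inactive X chromosome, differed by 0.94 (SE 0.19, limma adjusted p = 0.0399) on ILMN_2853225, which was detected on 1 of 3 control arrays and 3 of 3 shChd8 arrays, so its control level lay mostly at background. Its brightest probe, ILMN_1242619, was detected on all 6 arrays and differed by 0.03 (SE 0.17, limma adjusted p = 0.937). On the brightest probe of each gene, 11 of 27 repressors were above 0, beside 48.2% of all genes, with a median log2 difference of -0.11. At an unadjusted limma p under 0.05 there were 3, all lower, fewer than the 27.4% found over all genes. Kat5, the acetyltransferase of the Tip60-p400 complex, differed by -0.63 (SE 0.14, limma adjusted p = 0.051), and the RNA-binding gene Lin28a by -0.95 (SE 0.28, limma adjusted p = 0.0814). Mga, a subunit of the non-canonical Polycomb complex with Pcgf6, differed by -0.51 (SE 0.22) and Pcgf6 by -0.35 (SE 0.17). The histone demethylase gene Kdm1a differed by -0.37 (SE 0.16), and Trim28, the corepressor of KRAB zinc-finger proteins, by -0.31 (SE 0.14).

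Telomere genes, listed because Zscan4 is known to act at telomeres, gave 0 limma calls among 10 tested, 1 gene in each direction at an unadjusted p under 0.05 (27.4% over all genes), and 0.16 as the median log2 difference. The shelterin gene Terf2ip differed by -0.51 (SE 0.18, limma adjusted p = 0.121). Stn1 and Ten1, subunits of the CST complex, differed by 0.50 (SE 0.21) and 0.38 (SE 0.18), and the helicase gene Blm by -0.30 (SE 0.18).

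Markers of oocytes, primitive endoderm and embryonic stem cells were read beside the members. Which cells carried the member transcripts was not tested. Of 19 oocyte and egg genes, 16 had a probe, 7 were detected on no array and 6 were tested. Of these 6, 1 was called, where 5.17% of all genes were called. Nlrp14, an oocyte NLR-family gene detected on 2 of 3 shChd8 arrays, fell by 1.03 on the log2 scale (SE 0.21, limma adjusted p = 0.0385), and Btg4 (-0.55, SE 0.22), Gdf9 (-0.36, SE 0.17) and Figla (0.50, SE 0.24) were not called. Of 11 tested primitive endoderm markers, 1 was called, beside the same 5.17% of all genes. Amn, a membrane partner of the receptor cubilin, fell by 1.01 (SE 0.18, limma adjusted p = 0.0295). Sparc (0.71, SE 0.22), Col4a2 (0.69, SE 0.29) and Dab2 (0.54, SE 0.24) were not called. Among the embryonic stem cell markers, 10 of 15 were below 0, with a median log2 difference of -0.08. Lin28a, also listed as a repressor, differed by -0.95 (SE 0.28, limma adjusted p = 0.0814). Tcl1 differed by -0.63 (SE 0.19), Fgf4 by -0.49 (SE 0.24) and Klf4 by 0.27 (SE 0.18). None of these was called.

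The feeder markers moved with the groups. Their median deviation lay between -0.92 and -0.18 in the controls and between -0.04 and 0.93 in shChd8 samples. Fbln2, an extracellular matrix gene, rose by 1.13 (SE 0.22, limma adjusted p = 0.0376) on its brightest probe, and Tagln, a smooth muscle and fibroblast actin-binding gene, by 1.06 (SE 0.22, limma adjusted p = 0.042, detected on 2 of 3 control arrays). Twist1 (1.00, SE 0.23) and Acta2 (1.16, SE 0.29) were not called. Of 34 feeder genes with a probe, 3 (Col5a2, Fbln5 and Postn) were detected on no array. With the feeder median as a covariate all 9 member differences were above 0, their median was 0.74, and 0 were called (lowest limma adjusted p = 0.349). In that fit the covariate overlaps with the groups, and 0 of all 16732 probes were called.

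**Figure D5:**
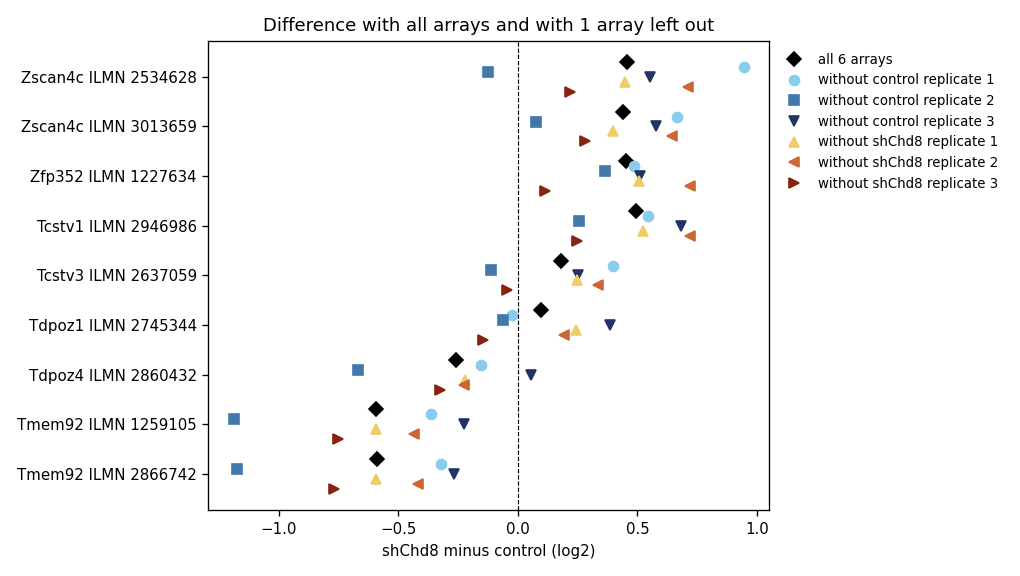
Log2 difference (shChd8 minus control) of the 9 tested member probes with all 6 arrays (black diamonds) and with each array left out in turn (coloured symbols). The values without control 2 lie lowest for both Zscan4 probes, Tcstv3, Tdpoz4 and both Tmem92 probes, and the sign of Tcstv3, Tdpoz1, Tdpoz4 and Zscan4 probe ILMN_2534628 depends on which array is left out.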

How the data were processed

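Per the file headers, the authors deposited intensity on a linear scale in a non-normalized and a normalized table, and the first also gives the detection p-value of every probe. The submitters' processing notes name GenomeStudio without a version. The non-normalized intensity was background corrected and quantile normalized with neqc (negative controls inferred from the detection p-values, offset 16) in limma 3.58.1 under R 4.3.3, giving log2 values. Probes with a detection p under 0.01 on at least 3 of 6 arrays were tested with lmFit and eBayes, 3 control against 3 shChd8 arrays, two-sided, with no covariate, and p-values were adjusted by Benjamini-Hochberg over all 16732 tested probes. The fit was tested on simulated data. A gene was called when any probe had an adjusted p under 0.05. List medians rest on each gene's brightest probe. Symbols came from the platform annotation. For 34807 probes the current symbol was read from RefSeq (GRCm38.p6) by gene identifier, whether or not the symbol had changed. No probe sequences or probe coordinates were used here. Promoters were aligned with Biopython 1.88. The number of arrays limits the precision.

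The members and lists were chosen with earlier results of these data known. Named genes were all members, Chd8, the called genes of each other list with its 4 lowest unadjusted p (6 for the other 2-cell-like genes, activators and repressors), and the 5 genes most like the Zscan4 profile. Alternatives covered background correction, normalization, the filter, an intensity trend, a feeder covariate and leaving out each array.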

Additional observations from a re-analysis of the deposited data

How the results depend on the processing

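The member probes gave 0 calls in all 15 alternatives except without control 2. There the 2 Tmem92 probes were among the 864 of 16325 tested probes called. Leaving out arrays gave 0 to 2 member calls. Of 135 member fits, 123 kept direction and side of the threshold and 10 reversed. With 1 array left out, the log2 difference ranged from -0.12 to 0.94 for Zscan4c (ILMN_2534628), 0.07 to 0.66 for Zscan4c (ILMN_3013659), 0.12 to 0.72 for Zfp352, 0.25 to 0.72 for Tcstv1, -0.11 to 0.40 for Tcstv3, -0.15 to 0.39 for Tdpoz1 (-0.02 without control 1, -0.06 without control 2, -0.15 without shChd8 3) and -0.67 to 0.056 for Tdpoz4. The 2 Tmem92 probes ranged from -1.19 to -0.23 and from -1.17 to -0.27, and the member median from -0.11 to 0.40. Tcstv3 was -0.05 without shChd8 3. With the feeder covariate, Tdpoz4 was 0.29, the Tmem92 probes 0.085 and 0.046, the member median 0.74, and Chd8 -1.56 (limma adjusted p = 0.249, not called). The cause was not tested.

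Counts over all probes and genes depended on the setting. They were 1646 and 1254 with normexp without controls, 1728 and 1323 without background correction, 1802 and 1341 with median scaling, 1731 and 1326 with the deposited normalized table, 272 and 224 with the looser filter, 1049 and 833 with the stricter filter, 311 and 259 without a filter, 1715 and 1303 with an intensity trend, and 0 and 0 with the feeder covariate. Leaving out an array gave 17 to 864 probes and 15 to 679 genes, against 615 and 502. Median scaling moved the median of all probes to 0.18, and 11.8% of called probes were then lower, against 57.7%; the lower share was 50.7% with normexp, 50.3% with a trend, 65.9% without a filter and 46.1% to 94.1% with an array left out.

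In the lists, other 2-cell-like genes called numbered 1 without a filter and 0 with the feeder covariate (0 to 2 with an array left out), and activators 1 with median scaling (0 to 1). Repressors numbered 3 with normexp, 2 without background correction, 2 with the deposited values, 0 with the looser filter, 0 without a filter, 4 with a trend and 0 with the covariate (0 to 1). Telomere genes numbered 1 with normexp, 2 without background correction, 1 with median scaling, 2 with the deposited values and 2 with a trend. Embryonic stem cell markers numbered 2 with normexp, 2 without background correction, 2 with the deposited values, 1 with the stricter filter and 2 with a trend. Feeder markers numbered 10, 8, 15, 8, 0, 6, 0, 12 and 0 in the order of settings above (0 to 4). Primitive endoderm markers numbered 2 each with normexp, no background correction, the deposited table and a trend, 4 with median scaling and 0 with the covariate (0 to 2). Oocyte markers numbered 0 with median scaling, with the looser, the stricter and no filter and with the covariate (0 to 1).

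No paired analysis was possible because the labels give no replicate numbers that the groups share. Probes not above background, such as those of Tdpoz3, allow no fold, and 3 arrays a group leave wide intervals for members with this spread.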
